A study of Homo sapiens with 16 samples.

Results

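The antioxidant and NRF2 pathway genes described here are 43 genes, out of 26410 genes in the deposited tables, that hold the redox balance of a cell or control the genes that do. They were chosen by name, by matching the Ensembl identifiers of both tables to a list of 43 gene symbols, and each symbol matched 1 identifier. The symbols were listed with earlier results of these data known. The cells were SH-SY5Y, a human neuroblastoma line, in which CRISPR editing with a pCas9-guide vector had been aimed at TRPM2, a calcium-permeable channel opened by oxidative stress. The 2 clones labelled TRPM2 KO (KO11 and KO28) carried a TRPM2 guide vector, and the 2 scrambled control clones (Scr13 and Scr16) carried the same vector with a scrambled guide. Both genotypes had also received a donor vector with GFP and puromycin markers and had been grown under puromycin, and each clone came from 1 cell, so a difference between the genotypes cannot be told apart from a difference between single-cell clones. Polyadenylated RNA was sequenced from every clone in 2 replicates, untreated or after 24 h in 0.3 µM doxorubicin, an anthracycline that damages DNA and generates oxidants. This gave 16 libraries in 4 groups of 4 (untreated Scr, untreated KO, doxorubicin Scr and doxorubicin KO). The sample labels give the dose as 0.3 µM, while the text for the whole series gives another dose.

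NRF2, the product of NFE2L2, is a transcription factor that binds antioxidant response elements in the DNA of its target genes. KEAP1 holds NRF2 in the cytoplasm and feeds it to a ubiquitin ligase, and oxidants or electrophiles that modify KEAP1 let NRF2 build up and switch on its targets. The targets make glutathione, reduce thioredoxin, detoxify quinones, store iron and supply NADPH, and the peroxidases, peroxiredoxins, catalase and superoxide dismutases described with them remove superoxide and peroxides, not all of them under NRF2. Anthracyclines are quinones that pass electrons to oxygen, so these enzymes are of interest in cells treated with doxorubicin.

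TRPM2 itself, at chr21:44350163-44443081 on GRCh38, was examined first as a check on the labels. Its deposited level, in gene counts divided by library size and a library factor (normalized CPM), was 0.118, 0.115, 0 and 0 in the untreated Scr libraries, in the order Scr13 replicates 1 and 2 and Scr16 replicates 1 and 2, which is used for all Scr libraries. The untreated libraries labelled TRPM2 KO had 1.93, 2.23, 1.41 and 2.19 normalized CPM, in the order KO11 replicates 1 and 2 and KO28 replicates 1 and 2, used throughout. The reads thus went against the label, with 123 reads in the 4 untreated libraries labelled KO and 5 in the 4 Scr libraries. TRPM2 reached the level required for the test in the untreated libraries labelled KO alone, so no test of that difference is given. After doxorubicin the levels were 0.0594, 0.0631, 1.33 and 0.390 in Scr and 1.22, 1.83, 1.37 and 0.658 in the libraries labelled KO, which overlapped, and the log2 difference was 0.69 (95% interval -0.00 to 1.38, limma adjusted p = 0.249). The study's methods describe removal of the start of the coding sequence with a frameshift after it, and state that the clones were authenticated by RT-PCR and Western blotting. TRPM2 also overlaps TRPM2-AS on the opposite strand, whose reads cannot be told apart from its own where the strand setting is unknown. A count over all exons does not show whether a transcript carries the edit. The genotype is therefore written as labelled throughout, and every direction below is that of the labels.

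The libraries held between 10481177 and 25086085 reads on genes, and a floor of 3 reads corresponded to 0.118 to 0.285 normalized CPM, which covers counting error only. The shallowest was Scr16 doxorubicin replicate 1. Markers of neuroblastoma cells were abundant, with a summed level over 9 genes of 5077 to 5894 normalized CPM in untreated Scr and 5332 to 6140.0 in untreated KO, led by DBH, although TH stayed at or below 1.13 normalized CPM in every library. Of the leukocyte markers only CD14 and LYZ were in the tables, at a sum of at most 1.67 normalized CPM in any library, and the epithelial and endothelial markers (EPCAM, CDH1 and VWF) summed to at most 2.48.

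The genotypes differed in markers of the mesenchymal neuroblastoma state and of fibroblasts. The 7 mesenchymal markers in the tables summed to 743, 414, 500.2 and 550.3 normalized CPM in untreated Scr and 751, 705, 904 and 855 in untreated KO, and to 439.8 to 648 and 716 to 983 after doxorubicin, with VIM the most abundant. Scr13 untreated replicate 1 overlapped the KO libraries, and after doxorubicin the ranges did not overlap. VIM, FN1 and YAP1 were higher and TWIST1 lower in untreated libraries labelled KO, and FOSL1 and CD44 were higher as well after doxorubicin. In log2 terms VIM differed by 1.10 untreated and 1.23 after doxorubicin (limma adjusted p = 0.00406 and 3.96e-05). The untreated call of VIM was lost without clone KO28 (log2 difference 1.01, limma adjusted p = 0.0737). In DESeq2 or with no filter on low genes it was not called either (adjusted p 0.0946 to 0.17). The untreated call of FN1 was lost without KO28, with no filter and in DESeq2 as well, and that of FOSL1 after doxorubicin with no filter and in DESeq2. By DESeq2 2 of the 6 mesenchymal markers tested were called untreated and 5 of 7 after doxorubicin, against 4 and 6 by limma. Over all genes, DESeq2 called 862 of 14364 untreated and 1457 of 14572 after doxorubicin, and limma called 4.84% and 8.69%. Of the 6 fibroblast markers, COL1A1 was called higher under both treatments and LUM untreated, while THY1, the most abundant, was not called, and the list summed to 173 to 201 normalized CPM in untreated Scr and 191 to 252 in untreated KO, against 141 to 167 and 181 to 218 after doxorubicin. The calls of COL1A1 were lost without KO28 and with no filter. DCN under both treatments and LUM after doxorubicin entered the test through the libraries labelled KO alone, so no test of these is given. Libraries labelled KO had 3.87% to 6.41% of their reads on mitochondrially encoded genes untreated and 5.42% to 8.10% after doxorubicin, against 4.19% to 4.89% and 4.86% to 5.83% in Scr. These values differed with the genotype label, although the mitochondrial shares and the untreated fibroblast sums overlapped, and their part in the differences below was not tested. In bulk RNA, fewer cells that express a gene and less of its RNA per cell cannot be told apart.

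The pathway was led by iron storage and peroxide removal. Levels between genes were compared per length, as TPM, which divides reads by exon length and by the total of such values in a library, computed here from the recovered reads and GENCODE 29. In untreated Scr the ferritin light chain FTL was highest with a mean of 1614, followed by the heavy chain FTH1 (1324), the glutathione transferase GSTP1 (673), the peroxiredoxins PRDX5 (516), PRDX2 (476), PRDX1 (342) and PRDX6 (308), and the glutathione peroxidases GPX1 (303) and GPX4 (284). KEAP1 had 89.2 and NFE2L2 31.0 on the same scale. Levels of NRF2 targets spread widely, the ferritins FTL and FTH1 being among them. Of other targets, TXNRD1 had 111, NQO1 18.2, GCLC 17.2, GCLM 15.7, HMOX1 1.03 and SRXN1 0.851. GPX8 came last in untreated Scr with 0.0797, yet reached 2.06 in the libraries labelled KO after doxorubicin. FTH1 and FTL have 25 and 16 annotated pseudogenes that could share reads with them, and FTH1 overlaps BEST1 on the opposite strand, so their levels are uncertain.

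**Figure D1:**
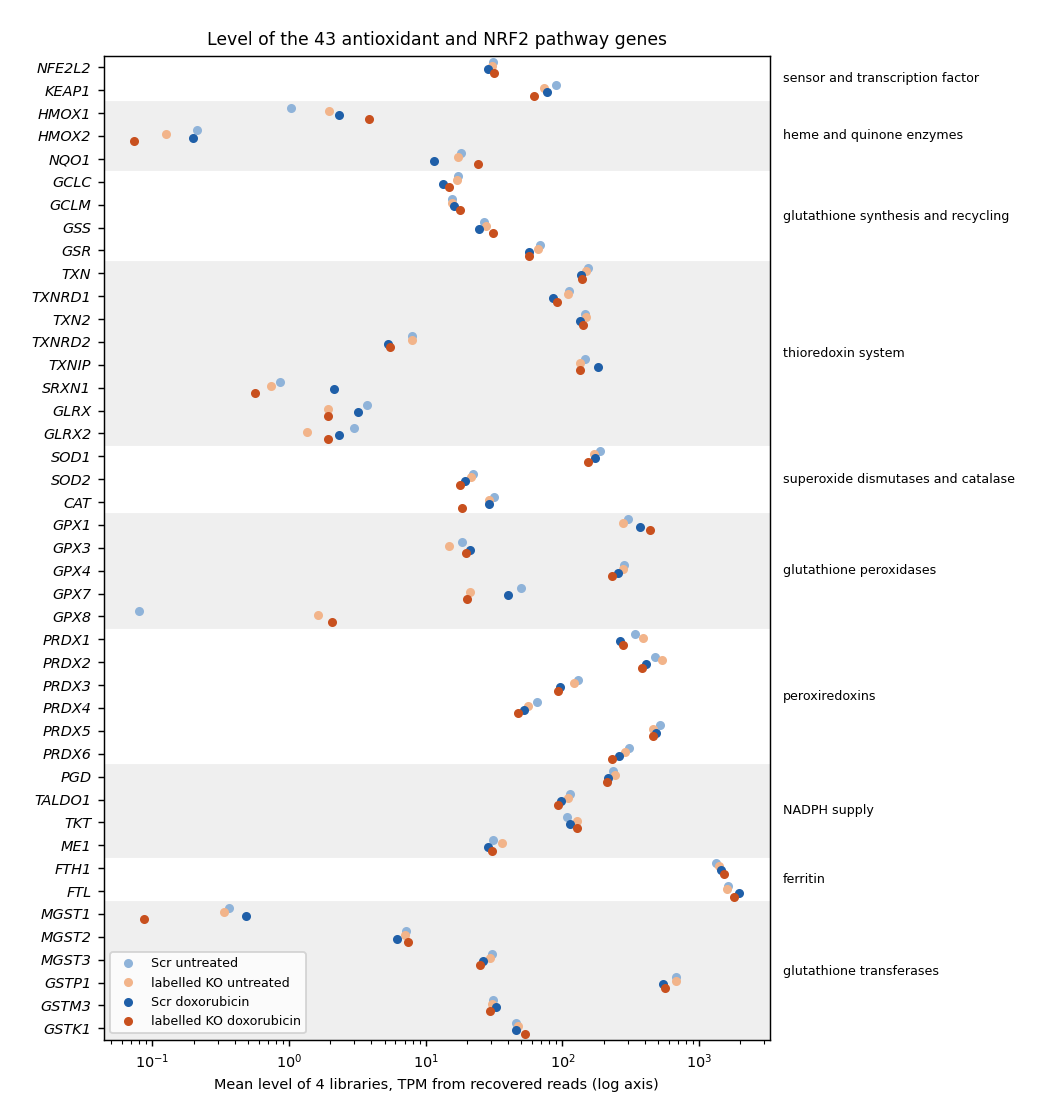
Mean level of each of the 43 genes in the 4 groups, in TPM on a log axis, with genes ordered by role and 1 point per group of 4 libraries. FTL and FTH1 lie highest in every group, and GPX8, drawn in 3 groups because it had 0 reads in doxorubicin Scr, shifts most between the genotype labels.

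The DNA around the gene starts was searched for the core of the antioxidant response element, TGACNNNGC, on both strands, in RefSeq windows of 300 bases (250 before the start and 50 after) on GRCh38.p14. Windows were found for 34 of the 43 genes. HMOX1, GSS, GSR, TXN2, SOD1, PRDX1, PRDX6, FTH1 and MGST2 had no entry. The 9 letters occurred in 8 of the 51 windows of these genes (15.7%), belonging to GCLM, GSTP1, KEAP1, ME1, MGST1, PGD and TXNRD1, and in 13.3% of all 35116 windows in the table. The matches of MGST1 and PGD, another in ME1 and others in TXNRD1 are not shown. The following stretches of 29 bases show some of the matches in genes of glutathione synthesis, glutathione transfer, NADPH supply, thioredoxin reduction and NRF2 control, each on the strand that reads TGACNNNGC, with the match in capitals.
GCLM, chr1:93909446-93909474, plus strand: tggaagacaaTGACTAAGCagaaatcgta
GSTP1, chr11:67583736-67583764, plus strand: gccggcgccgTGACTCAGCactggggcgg
ME1, chr6:83431170-83431198, minus strand: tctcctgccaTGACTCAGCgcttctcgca
TXNRD1, chr12:104215670-104215698, plus strand: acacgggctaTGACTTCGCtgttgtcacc
KEAP1, chr19:10502784-10502812, plus strand: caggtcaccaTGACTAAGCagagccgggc
KEAP1, chr19:10502807-10502835, minus strand: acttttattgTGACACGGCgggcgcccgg
Matches in GSTP1 and ME1 had the same 9 bases, and those in GCLM and the nearer site of KEAP1 shared another 9. None of these 5 genes was called between the genotypes, and TXNRD1 and GSTP1 were lower after doxorubicin in Scr. A match describes the letters in the window and does not show that NRF2 binds there.

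Between the genotype labels, few of the genes passed the test untreated and more did after doxorubicin. Untreated, 3 of the 38 genes tested (7.89%) were called, 1 higher (TKT) and 2 lower (GLRX2 and GPX7) in libraries labelled KO, where 4.84% of all 14364 genes tested were called. After doxorubicin 7 of 39 (17.9%) were called, 4 higher (NQO1, GSS, GPX1 and TKT) and 3 lower (TXNIP, CAT and GPX7), against 8.69% of all 14572 genes. GPX8 reached the level required for that test in the libraries labelled KO alone, so its call, which would make 8 of 40, was not counted. The median log2 difference over the genes was -0.00 untreated and 0.06 after doxorubicin, GPX8 left out, beside -0.01 and 0.01 over all genes tested. A call means a Benjamini-Hochberg adjusted p under 0.05 in limma, on log2(normalized CPM + 1), so the fold changes of low genes are understated. The 4 libraries of a group come from 2 clones, and the p-values measure the spread between libraries. The following counts after doxorubicin include GPX8 where it passed, so they compare with the 8 calls that include it and not with the 7. With clone means in place of libraries 1 and 7 genes were called, and with the clone as a random block 3 and 8. With no filter on low genes 3 were called after doxorubicin, NQO1, CAT and GPX8. Leaving out a clone gave 5 calls (without KO11) or 1 (without Scr13, Scr16 or KO28) untreated, and after doxorubicin 1 (without KO11), 7 (without Scr13) or 2 (without Scr16 or KO28). Leaving out 1 library gave 1 to 4 calls untreated, with 1 left without Scr13 replicate 1 or 2, Scr16 replicate 1 or KO28 replicate 1 or 2. After doxorubicin that range was 4 to 8, with 4 left without KO11 replicate 1 or KO28 replicate 2 and 5 without KO11 replicate 2 or Scr16 replicate 1.

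**Figure D2:**
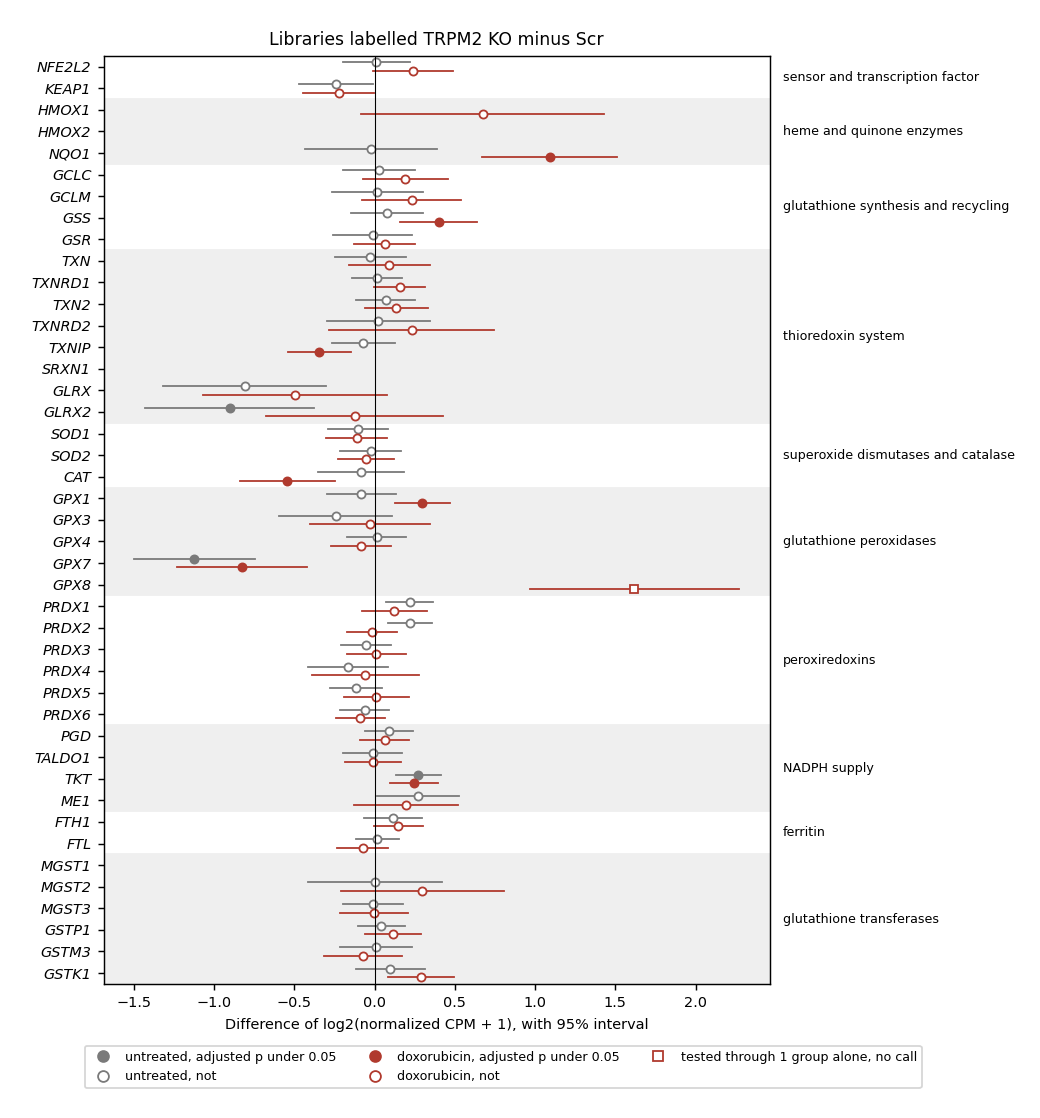
Difference in log2(normalized CPM + 1) between the libraries labelled TRPM2 KO and Scr for each gene, untreated in grey and after doxorubicin in red, with 95% intervals and filled points for adjusted p under 0.05 (4 libraries against 4). The open square marks GPX8, tested through 1 group alone. Most points lie near 0, while GPX7 lies to the left under both treatments and NQO1 to the right after doxorubicin.

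Doxorubicin raised some of the genes and lowered others in each genotype. In Scr 7 of 40 genes (17.5%) were called, 3 higher (TXNIP, GPX1 and FTL) and 4 lower (TXNRD1, PRDX1, PRDX3 and GSTP1), beside 12.6% of all 15325 genes. In the clones labelled KO 8 of 40 (20%) were called, 4 higher (NQO1, GPX1, FTH1 and FTL) and 4 lower (CAT, PRDX1, PRDX2 and PRDX3), beside 17.7% of all genes. These shares lay near those of all genes. The median log2 difference was -0.12 in Scr, with 10 genes above 0 and 30 below, and 0.01 in the clones labelled KO, with 20 on each side, beside -0.01 and 0.02 over all genes tested. Of the response in KO minus that in Scr, 0 of 40 genes were called by limma (6 at an unadjusted p under 0.05), where 0.0326% of all genes were. edgeR's quasi-likelihood test also called 0 and DESeq2 called 1, NQO1. Without clone Scr13 no gene was called for doxorubicin in Scr, and 4 were without Scr16, whereas 4 and 3 were called for doxorubicin in KO without KO11 and without KO28. With no filter on low genes 3 were called in Scr, TXNRD1, PRDX3 and FTL. Leaving out 1 library gave 3 to 9 calls in Scr, with 3 left without Scr13 doxorubicin replicate 1, and 6 to 9 in KO.

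**Figure D3:**
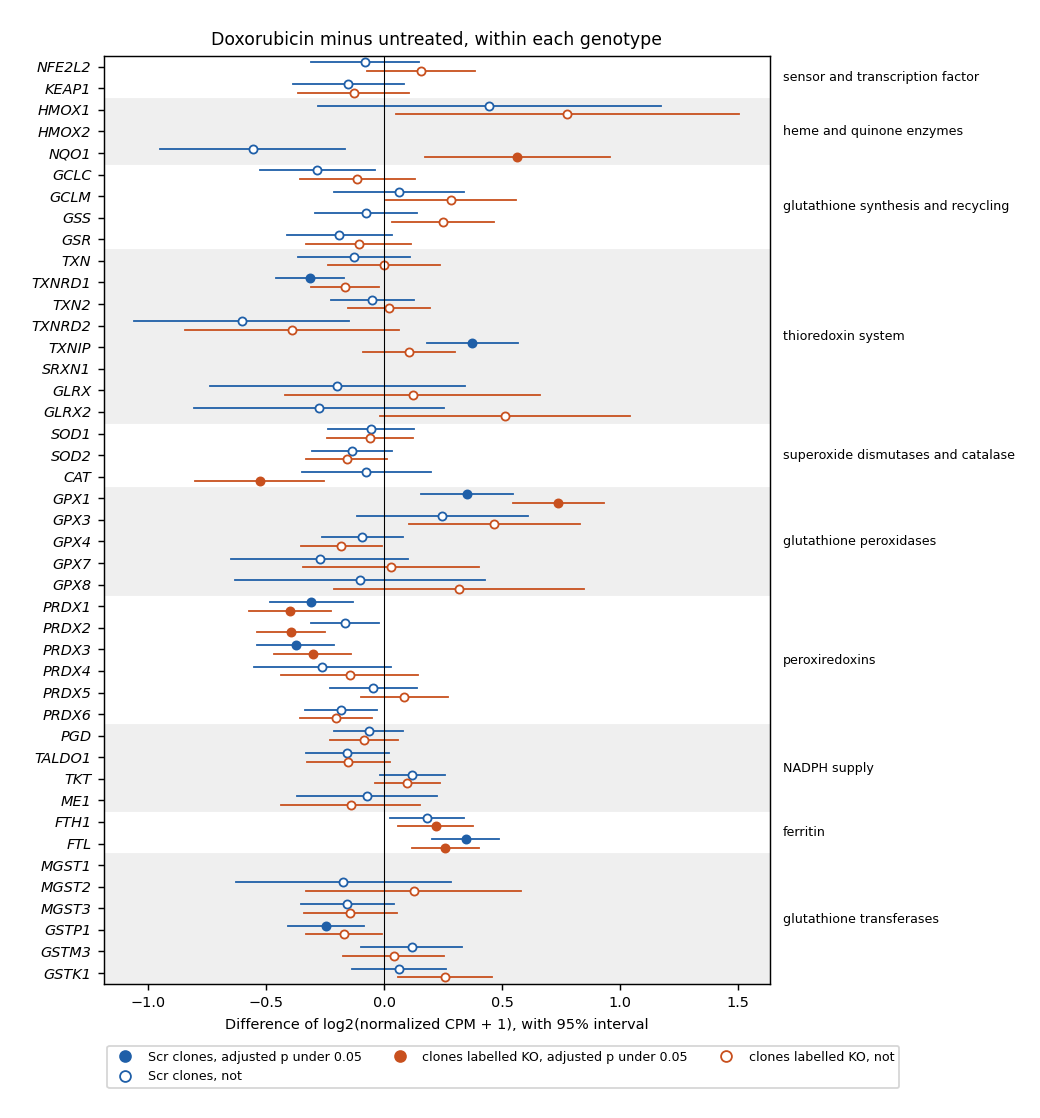
Difference in log2(normalized CPM + 1) between doxorubicin and untreated libraries for each gene, in Scr clones (blue) and clones labelled TRPM2 KO (orange), with 95% intervals and filled points for adjusted p under 0.05 (4 libraries against 4, clone as a term). GPX1 and FTL lie to the right and PRDX1 and PRDX3 to the left in both, and NQO1 lies on opposite sides.

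The sensor and the transcription factor were not called in any comparison. NFE2L2, at chr2:177227595-177392697, had 46.2, 50.1, 44.4 and 45.4 normalized CPM in untreated Scr and 42.5, 51.5, 51.3 and 42.9 in untreated KO. With doxorubicin it had 54.7, 39.2, 35.9 and 48.7 in Scr and 51.3, 53.7, 56.6 and 47.4 in KO. The groups overlapped under both treatments, with genotype differences of 0.01 (95% interval -0.20 to 0.22, limma adjusted p = 0.984) untreated and 0.24 (95% interval -0.01 to 0.49, limma adjusted p = 0.271) after doxorubicin. KEAP1, at chr19:10486120-10503741, had 78.0, 89.0, 71.7 and 98.5 normalized CPM in untreated Scr and 75.9, 61.0, 64.2 and 84.2 in untreated KO, then 62.7, 86.8, 75.2 and 78.8 and 66.9, 68.2, 53.8 and 70.1 after doxorubicin. Its means were lower in KO but the groups overlapped, and the log2 differences of -0.24 (95% interval -0.47 to -0.01, limma adjusted p = 0.314) and -0.22 (95% interval -0.44 to -0.00, limma adjusted p = 0.237) did not pass. The change with doxorubicin lay between -0.15 and 0.15 for both genes in either genotype (limma adjusted p at least 0.389).

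NQO1, the quinone reductase that is a standard readout of NRF2 activity, was higher in the libraries labelled KO after doxorubicin. At chr16:69706996-69726951, it had 17.0, 10.0, 11.97 and 20.7 normalized CPM in untreated Scr and 15.6, 17.3, 12.2 and 12.04 in untreated KO. After doxorubicin it had 7.42, 7.13, 10.9 and 13.6 in Scr and 16.4, 27.5, 20.5 and 22.1 in KO. The untreated groups overlapped fully, and after doxorubicin every KO library lay above every Scr library, the closest being KO11 replicate 1 and Scr16 replicate 2. The untreated log2 difference was -0.02 (95% interval -0.44 to 0.39, limma adjusted p = 0.98), and after doxorubicin it was 1.09 (95% interval 0.67 to 1.51, limma adjusted p = 0.000902), or 2.13-fold, with a two-sided exact permutation p of 0.0286, the smallest that 4 libraries against 4 allow. That call held under 22 of 22 alternatives. NQO1 overlaps the annotated AC092115.2 on the opposite strand. Doxorubicin raised NQO1 in the clones labelled KO, with a log2 difference of 0.56 (95% interval 0.17 to 0.96, limma adjusted p = 0.0396), and the log2 difference in Scr was -0.56 (95% interval -0.95 to -0.17, limma adjusted p = 0.0526), which passed in edgeR and DESeq2. The rise in KO was not called without clone KO11 or KO28 (log2 difference 0.36 to 0.77, limma adjusted p 0.105 to 0.522), or without the single library KO11 untreated replicate 1, KO11 doxorubicin replicate 2, KO28 untreated replicate 1, KO28 untreated replicate 2, KO28 doxorubicin replicate 1 or KO28 doxorubicin replicate 2 (log2 difference 0.46 to 0.58, limma adjusted p 0.0756 to 0.152). With scaling by library size alone, without the clone term or with no filter on low genes it was not called either (adjusted p 0.0551 to 0.129). The difference between these responses was 1.12 (95% interval 0.57 to 1.68, limma adjusted p = 0.117), past the threshold in DESeq2 and without Scr16 untreated replicate 1.

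Heme oxygenase genes were low, HMOX2 near the floor. HMOX1, the inducible enzyme that breaks down heme, had 0.433, 0.576, 1.23 and 0.227 normalized CPM in untreated Scr and 0.827, 1.99, 0 and 1.97 in untreated KO, then 3.33, 1.14, 0 and 1.30 and 2.94, 3.34, 2.48 and 1.31 after doxorubicin. It was too low for the test untreated, and after doxorubicin the overlapping groups differed by 0.68 (95% interval -0.08 to 1.43, limma adjusted p = 0.315). HMOX2, the constitutive form, lay between 0 and 0.713 normalized CPM and was not tested. HMOX2 overlaps NMRAL1 on the opposite strand, and the sources used here do not give the strand setting of the counting, so its low count is uncertain.
The promoter window of NQO1, with 62.7% G and C over its 300 bases, held no TGACNNNGC, which says only that these letters are not in the window. Its 250 bases before the start are shown because NQO1 was called between the labels after doxorubicin.
NQO1, chr16:69726561-69726810, minus strand: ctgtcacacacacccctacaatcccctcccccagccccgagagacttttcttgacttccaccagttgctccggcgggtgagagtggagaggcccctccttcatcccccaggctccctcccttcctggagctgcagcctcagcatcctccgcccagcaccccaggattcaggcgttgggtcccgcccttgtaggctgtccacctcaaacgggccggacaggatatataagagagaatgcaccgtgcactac

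**Figure D4:**
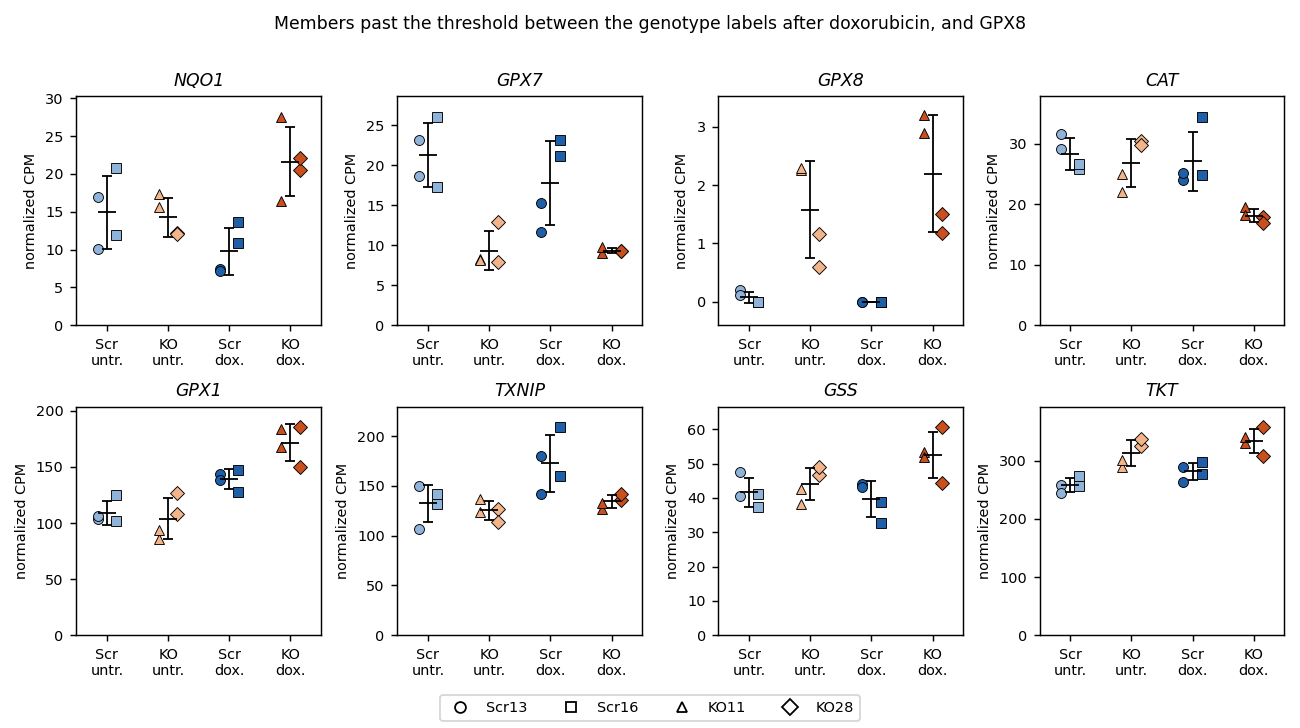
Normalized CPM in each library (symbols mark the clones, black bars the mean and SD of 4 libraries) for the 7 genes called between the genotype labels after doxorubicin and for GPX8, on linear axes. The doxorubicin groups do not overlap for NQO1, GPX7, GPX8, CAT, GPX1, GSS and TKT, whereas those of TXNIP do, and the untreated groups do not overlap for GPX7, GPX8 and TKT. All panels but GPX8 were chosen by a call in the same doxorubicin libraries, so their separation there is no further support for it.

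Of the genes of glutathione synthesis and recycling, 0 of 4 were called untreated (0 at an unadjusted p under 0.05, and 0 by edgeR and DESeq2) and 1 between the genotypes after doxorubicin, GSS (25%, beside 8.69% of all genes). GCLC, the catalytic subunit of the enzyme that sets the rate of glutathione synthesis, had 38.6, 31.8, 40.3 and 38.4 normalized CPM in untreated Scr and 40.7, 34.8, 36.1 and 40.2 in untreated KO, then 29.9, 31.5, 26.7 and 33.8 and 32.6, 38.4, 28.8 and 40.6 after doxorubicin. Its partner GCLM, which carries the match shown above, had 22.0, 22.0, 19.5 and 21.7 and 23.4, 24.8, 17.2 and 21.6, then 24.4, 27.2, 23.3 and 16.0 and 28.1, 26.8, 26.9 and 23.7. Groups overlapped in every genotype comparison of both, with log2 differences of 0.03 and 0.02 untreated and 0.19 and 0.23 after doxorubicin (limma adjusted p at least 0.431). GSS, glutathione synthetase at chr20:34928433-34956027, had 47.5, 40.7, 37.4 and 41.0 normalized CPM in untreated Scr and 42.5, 38.2, 46.5 and 49.0 in untreated KO, which overlapped. In treated cells it had 44.1, 43.1, 32.6 and 38.8 in Scr and 53.4, 51.8, 44.4 and 60.6 in KO, and the lowest KO library (KO28 replicate 1) lay just above the highest Scr library (Scr13 replicate 1). The log2 differences were 0.08 (95% interval -0.14 to 0.30, limma adjusted p = 0.825) and 0.40 (95% interval 0.16 to 0.64, limma adjusted p = 0.0336). The second was not called without clone KO11, Scr16 or KO28 (log2 difference 0.26 to 0.41, limma adjusted p 0.146 to 0.248), or without the single library KO11 doxorubicin replicate 1, KO11 doxorubicin replicate 2, Scr16 doxorubicin replicate 1, Scr16 doxorubicin replicate 2 or KO28 doxorubicin replicate 2 (log2 difference 0.31 to 0.40, limma adjusted p 0.0706 to 0.141). On clone means or with no filter on low genes it was not called either (adjusted p 0.063 to 0.115). GSR, which recycles oxidized glutathione, was not called in any comparison, with group means of 64.2, 64.3, 56.0 and 58.7 normalized CPM in untreated Scr, untreated KO, doxorubicin Scr and doxorubicin KO.

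In the thioredoxin system the inhibitor and the reductase moved with doxorubicin in Scr, in opposite directions, and TXNIP was lower in KO after it. TXNIP, which binds and inhibits thioredoxin, lies at chr1:145992435-145996600 and had 149.8, 106, 132 and 141 normalized CPM in untreated Scr and 124, 137, 126 and 114 in untreated KO. The treated libraries held 180.1, 142, 209 and 160.2 in Scr and 127, 133, 136 and 142 in KO, and all but 1 of the Scr libraries (Scr13 replicate 2) lay above every KO library. It rose in Scr, with a log2 difference of 0.37 (95% interval 0.18 to 0.57, limma adjusted p = 0.00804), while the log2 difference in KO was 0.10 (95% interval -0.09 to 0.30, limma adjusted p = 0.509). The rise in Scr was not called without clone Scr13 or Scr16 (log2 difference 0.34 to 0.40, limma adjusted p 0.0528 to 0.137), or without the single library Scr13 untreated replicate 2, Scr13 doxorubicin replicate 1 or Scr16 doxorubicin replicate 1 (log2 difference 0.28 to 0.31, limma adjusted p 0.055 to 0.0677), or with no filter on low genes (adjusted p = 0.0664). After doxorubicin TXNIP was lower in KO, with a log2 difference of -0.35 (95% interval -0.54 to -0.15, limma adjusted p = 0.0227) and an exact permutation p of 0.0571. That difference was not called without clone KO11, Scr16 or KO28 (log2 difference -0.39 to -0.25, limma adjusted p 0.0935 to 0.26), or without the single library KO11 doxorubicin replicate 1, KO11 doxorubicin replicate 2, Scr13 doxorubicin replicate 1 or Scr16 doxorubicin replicate 1 (log2 difference -0.34 to -0.25, limma adjusted p 0.0556 to 0.0838), or with no filter on low genes (adjusted p = 0.13).

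TXNRD1, the cytosolic thioredoxin reductase and an NRF2 target, had 191, 181, 194 and 184 normalized CPM in untreated Scr and 213, 196, 173 and 177 in untreated KO. With doxorubicin it had 143, 147, 155 and 157 in Scr and 158, 187, 157 and 171 in KO. Every treated Scr library lay below every untreated one, and the log2 difference was -0.32 (95% interval -0.46 to -0.17, limma adjusted p = 0.00242), while in KO it was -0.17 (95% interval -0.31 to -0.02, limma adjusted p = 0.1), which passed in DESeq2. The fall in Scr was not called without clone Scr13 (log2 difference -0.29, limma adjusted p = 0.137). SRXN1, which repairs overoxidized peroxiredoxins, was too low to test, with 0.590, 0.921, 0.184 and 0.625 normalized CPM in untreated Scr and 0.496, 0.181, 0.134 and 1.24 in untreated KO, then 0.832, 0.568, 3.71 and 0.909 and 1.02, 0.378, 0.0654 and 0.239 after doxorubicin, where the highest value came from the shallowest library.

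GLRX2, the mitochondrial glutaredoxin at chr1:193090866-193106114, was lower in untreated libraries labelled KO. It had 5.43, 4.72, 4.42 and 3.98 normalized CPM in untreated Scr and 3.42, 2.23, 1.81 and 1.02 in untreated KO, which did not overlap, then 1.96, 4.67, 4.37 and 4.16 and 3.52, 3.02, 2.55 and 4.12 after doxorubicin, which did. The log2 differences were -0.90 (95% interval -1.43 to -0.37, limma adjusted p = 0.0426) and -0.12 (95% interval -0.67 to 0.43, limma adjusted p = 0.859). The untreated call was lost without clone Scr13, Scr16 or KO28 (log2 difference -1.02 to -0.57, limma adjusted p 0.181 to 0.429), or without the single library KO11 untreated replicate 2, Scr13 untreated replicate 1, Scr13 untreated replicate 2, Scr16 untreated replicate 1, Scr16 untreated replicate 2, KO28 untreated replicate 1 or KO28 untreated replicate 2 (log2 difference -0.96 to -0.71, limma adjusted p 0.0696 to 0.148). In edgeR, on clone means, with a pseudocount of 0.25 or with no filter on low genes it was not called either (adjusted p 0.0569 to 0.225). GLRX2 overlaps TROVE2 on the opposite strand. The other members of the system (TXN, TXN2, TXNRD2 and GLRX) were not called by limma in any comparison. The largest genotype difference among them was that of the cytosolic glutaredoxin GLRX, -0.81 (95% interval -1.32 to -0.30, limma adjusted p = 0.0651) untreated, where the groups did not overlap. It was called with a pseudocount of 5, without clone KO11 and without KO11 replicate 2 (lowest adjusted p = 0.0174). TXNRD2, the mitochondrial reductase, had a log2 difference with doxorubicin in Scr of -0.60 (95% interval -1.06 to -0.15, limma adjusted p = 0.0725), which was called with a replicate block and without doxorubicin replicate 2 of Scr13 or of Scr16 (lowest adjusted p = 0.00341).

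The superoxide dismutases were not called in any comparison, and catalase was lower in KO after doxorubicin. SOD1, the copper and zinc enzyme of the cytosol, had 94.5, 107, 93.8 and 84.7 normalized CPM in untreated Scr and 96.9, 83.8, 79.7 and 93.2 in untreated KO, then 96.6, 93.2, 89.3 and 86.0 and 75.4, 93.7, 75.2 and 95 after doxorubicin. The manganese enzyme of mitochondria, SOD2, had 89.0, 95.5, 92.5 and 90.9 and 102, 100.5, 76.0 and 85.5, then 90.8, 83.6, 82.9 and 78.2 and 85.3, 75.8, 76.3 and 85.5. Groups overlapped in both genotype comparisons of each gene, and the 95% intervals of the differences after doxorubicin were -0.30 to 0.08 for SOD1 and -0.23 to 0.12 for SOD2 on the log2 scale. CAT, the catalase that degrades hydrogen peroxide in peroxisomes, lies at chr11:34438925-34472062 and had 31.7, 29.2, 25.8 and 26.7 normalized CPM in untreated Scr and 25.1, 22.0, 30.4 and 29.8 in untreated KO, which overlapped. In treated cells it had 24.0, 25.2, 34.4 and 24.9 in Scr and 19.5, 18.2, 17.9 and 16.9 in KO, with every KO library below every Scr library and Scr16 replicate 1 far above the other Scr libraries.

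The log2 difference of CAT after doxorubicin was -0.54 (95% interval -0.84 to -0.25, limma adjusted p = 0.0164), or 1.46-fold lower in KO, with an exact permutation p of 0.0286. This was not called without clone KO11, Scr16 or KO28 (log2 difference -0.60 to -0.42, limma adjusted p 0.0942 to 0.185), or without the library KO28 doxorubicin replicate 2 (log2 difference -0.51, limma adjusted p = 0.0513). The value without the high library Scr16 doxorubicin replicate 1 remained past the threshold. Untreated, the log2 difference was -0.08 (95% interval -0.35 to 0.18, limma adjusted p = 0.842). Doxorubicin lowered CAT in the clones labelled KO, with a log2 difference of -0.53 (95% interval -0.80 to -0.25, limma adjusted p = 0.00536), and the log2 difference in Scr was -0.08 (95% interval -0.35 to 0.20, limma adjusted p = 0.782). The fall in KO was not called without clone KO28 (log2 difference -0.30, limma adjusted p = 0.365). The difference between these responses was -0.45 (95% interval -0.84 to -0.06, limma adjusted p = 0.512), which did not pass.

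Among the glutathione peroxidases, GPX7 of the endoplasmic reticulum was lower in the libraries labelled KO, while GPX8, of the same compartment, had most of its reads there. GPX7, at chr1:52602372-52609051, had 23.1, 18.6, 17.3 and 26.0 normalized CPM in untreated Scr and 8.27, 8.13, 12.9 and 7.88 in untreated KO. The treated libraries held 11.7, 15.3, 23.1 and 21.1 in Scr and 9.02, 9.76, 9.22 and 9.21 in KO. No KO library reached the lowest Scr library under either treatment, and KO28 untreated replicate 1 was the highest in KO. The log2 differences were -1.12 (95% interval -1.50 to -0.75, limma adjusted p = 0.000379) untreated, which held under 22 of 22 alternatives, and -0.82 (95% interval -1.23 to -0.42, limma adjusted p = 0.00789) after doxorubicin, or 2.18-fold and 1.77-fold lower. The second was not called without clone KO11, Scr16 or KO28 (log2 difference -0.84 to -0.48, limma adjusted p 0.0804 to 0.168), or with no filter on low genes (adjusted p = 0.0575). Doxorubicin itself changed GPX7 by -0.28 (95% interval -0.65 to 0.10, limma adjusted p = 0.364) in Scr and 0.03 (95% interval -0.35 to 0.40, limma adjusted p = 0.946) in KO.

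GPX8, at chr5:55160118-55167071, was nearly silent in Scr. Its untreated levels were 0.197, 0.115, 0 and 0 normalized CPM in Scr and 2.26, 2.29, 0.604 and 1.17 in KO, and after doxorubicin 0, 0, 0 and 0 and 3.20, 2.90, 1.18 and 1.50. The 4 untreated libraries held 7 reads in Scr and 104 in KO, a ratio of 17.8 after scaling for depth, and the treated ones held 0 and 139, so KO was at least 42.2-fold higher against a floor of 3 reads over the group. Both KO11 libraries lay above both KO28 libraries under either treatment. It was too low for the test untreated, and after doxorubicin it entered the test through the libraries labelled KO alone, so no test of the difference is given. GPX8 overlaps CDC20B on the opposite strand. The mesenchymal marker sum was 751, 705, 904 and 855 in untreated KO and 743, 414, 500.2 and 550.3 in untreated Scr, and after doxorubicin 899, 716, 983 and 828 and 507, 439.8, 648 and 592. Its KO and Scr values overlapped untreated and not after doxorubicin, while KO28 lay above KO11 untreated and overlapped it after doxorubicin, and its part in this result was not tested.
The 250 bases before the start of both genes are shown because their groups did not overlap under either treatment. Neither 300-base window held TGACNNNGC, and that of GPX7 was 69% G and C against 43% for GPX8.
GPX7, chr1:52602121-52602370, plus strand: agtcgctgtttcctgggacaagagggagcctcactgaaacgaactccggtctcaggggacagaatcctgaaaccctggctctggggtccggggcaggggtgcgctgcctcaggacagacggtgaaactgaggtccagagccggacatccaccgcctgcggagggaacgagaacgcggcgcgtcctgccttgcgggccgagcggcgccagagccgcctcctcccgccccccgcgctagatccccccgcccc
GPX8, chr5:55159921-55160170, plus strand: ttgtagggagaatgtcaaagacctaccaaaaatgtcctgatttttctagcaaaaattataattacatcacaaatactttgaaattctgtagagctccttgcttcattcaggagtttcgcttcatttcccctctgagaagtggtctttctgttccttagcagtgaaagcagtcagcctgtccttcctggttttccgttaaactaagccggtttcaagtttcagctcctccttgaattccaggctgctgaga

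GPX1, the abundant cytosolic glutathione peroxidase, rose with doxorubicin in both genotypes. At chr3:49357171-49358600, it had 104, 106, 102 and 125 normalized CPM in untreated Scr and 85.6, 93.7, 108 and 127 in untreated KO, then 144, 138, 127 and 148 and 184, 168, 149.9 and 185 after doxorubicin. In each genotype every treated library lay above every untreated one, and among treated libraries every KO library lay above every Scr library, KO28 replicate 1 by the least. The rise was 0.35 (95% interval 0.16 to 0.54, limma adjusted p = 0.0126) in Scr and 0.74 (95% interval 0.54 to 0.93, limma adjusted p = 1.14e-06) in KO, or 1.27-fold and 1.67-fold, and their difference was 0.39 (95% interval 0.11 to 0.66, limma adjusted p = 0.419). The rise in Scr was not called without clone Scr13 (log2 difference 0.27, limma adjusted p = 0.317), or without the single library Scr13 doxorubicin replicate 1 or Scr16 untreated replicate 1 (log2 difference 0.31 to 0.33, limma adjusted p 0.0509 to 0.052), or with no filter on low genes (adjusted p = 0.0799). Between the genotypes the log2 difference was -0.08 (95% interval -0.30 to 0.13, limma adjusted p = 0.811) untreated and 0.30 (95% interval 0.13 to 0.47, limma adjusted p = 0.0224) after doxorubicin. The latter was not called without any 1 of the 4 clones (log2 difference 0.26 to 0.34, limma adjusted p 0.0555 to 0.258), or without the single library KO11 doxorubicin replicate 1, Scr16 doxorubicin replicate 1 or KO28 doxorubicin replicate 2 (log2 difference 0.26, limma adjusted p 0.059 to 0.104), or with no filter on low genes (adjusted p = 0.0818).

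GPX4, which reduces lipid hydroperoxides in membranes, had 133, 138, 148 and 156 normalized CPM in untreated Scr and 135, 124, 162 and 161 in untreated KO, then 124, 128, 136 and 153 and 129, 126, 109 and 147 after doxorubicin. The groups overlapped, with log2 differences of 0.01 (95% interval -0.17 to 0.20, limma adjusted p = 0.972) and -0.08 (95% interval -0.27 to 0.10, limma adjusted p = 0.681). GPX3, the secreted form, was called in no comparison with all libraries (in KO with doxorubicin it was without KO28 doxorubicin replicate 1, adjusted p = 0.0294), its group means lying between 12.01 and 17.5 normalized CPM.

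The peroxiredoxins, which reduce hydrogen peroxide, most of them with electrons from thioredoxin, were called lower or not at all after doxorubicin. Of the 6, 2 fell in Scr (33.3%, beside 12.6% of all genes) and 3 in KO (50%, beside 17.7%). PRDX1, of the cytosol, had 136, 127, 123 and 136 normalized CPM in untreated Scr and 159.5, 146, 152 and 151 in untreated KO, then 102, 102, 108 and 110.2 and 119.6, 127, 89.3 and 128 after doxorubicin. PRDX2, also cytosolic, had 248, 264, 245 and 245 and 270.0, 296, 302 and 299, then 203, 222, 228 and 243 and 220.1, 239, 203 and 222. The mitochondrial PRDX3 had 117, 103, 107 and 118 and 108, 105, 106 and 109, then 89.9, 77.3, 87.8 and 88.5 and 87.7, 94.2, 75.0 and 90.2. In every one of these genes and both genotypes all treated libraries lay below all untreated ones, and untreated PRDX1 and PRDX2 were higher in all KO libraries than in any Scr library.

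For PRDX1 the change with doxorubicin was -0.31 (95% interval -0.49 to -0.13, limma adjusted p = 0.015) in Scr and -0.40 (95% interval -0.58 to -0.22, limma adjusted p = 0.00116) in KO. For PRDX2 it was -0.17 (95% interval -0.31 to -0.02, limma adjusted p = 0.127) in Scr, which did not pass, and -0.40 (95% interval -0.54 to -0.25, limma adjusted p = 0.000139) in KO, and for PRDX3 it was -0.38 (95% interval -0.54 to -0.21, limma adjusted p = 0.00161) and -0.30 (95% interval -0.47 to -0.14, limma adjusted p = 0.00704). The fall of PRDX1 in Scr was not called without clone Scr13 or Scr16 (log2 difference -0.36 to -0.26, limma adjusted p 0.0921 to 0.291), or without the single library Scr13 untreated replicate 1 or Scr13 doxorubicin replicate 1 (log2 difference -0.29 to -0.28, limma adjusted p 0.0509 to 0.0561), or with no filter on low genes (adjusted p = 0.063). That of PRDX3 in Scr was not called without clone Scr13 (log2 difference -0.36, limma adjusted p = 0.0857). In KO, the fall of PRDX1 was not called without clone KO28 (log2 difference -0.30, limma adjusted p = 0.0504). The same held for PRDX2 without clone KO28 (log2 difference -0.30, limma adjusted p = 0.053). PRDX3 was not called in KO without clone KO11 or KO28 (log2 difference -0.39 to -0.22, limma adjusted p 0.0527 to 0.214). The untreated genotype differences of PRDX1 and PRDX2, 0.22 (95% interval 0.07 to 0.36, limma adjusted p = 0.0852) and 0.22 (95% interval 0.08 to 0.35, limma adjusted p = 0.0578), did not pass in limma but did in DESeq2. PRDX4 and PRDX5 were not called in any comparison by limma, edgeR or DESeq2. The change of PRDX6 in KO, -0.21 (95% interval -0.36 to -0.05, limma adjusted p = 0.0525), did not pass in limma but did in edgeR and DESeq2. PRDX1, PRDX2 and PRDX3 have 1, 4 and 4 annotated pseudogenes. PRDX1 overlaps MMACHC on the opposite strand and PRDX2 overlaps HOOK2 on its own, so their counts are uncertain.

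Of the 4 genes of NADPH supply, 1 was called under both treatments (25%, beside 4.84% and 8.69% of all genes). TKT, the transketolase of the pentose phosphate pathway, lies at chr3:53224707-53256052 and had 259, 245, 256 and 274 normalized CPM in untreated Scr and 289, 301, 324 and 337 in untreated KO. After doxorubicin it had 288, 262.8, 297 and 277 in Scr and 329, 341, 308 and 357 in KO. Under both treatments every KO library lay above every Scr library, KO28 replicate 1 by the least after doxorubicin. The log2 differences were 0.27 (95% interval 0.13 to 0.42, limma adjusted p = 0.0203) and 0.25 (95% interval 0.10 to 0.39, limma adjusted p = 0.0343), or 1.21-fold and 1.19-fold. The untreated call was lost without clone Scr13, Scr16 or KO28 (log2 difference 0.19 to 0.31, limma adjusted p 0.1 to 0.308), or without the single library Scr13 untreated replicate 1, Scr13 untreated replicate 2, Scr16 untreated replicate 1, KO28 untreated replicate 1 or KO28 untreated replicate 2 (log2 difference 0.24 to 0.27, limma adjusted p 0.0505 to 0.0799). On clone means or with no filter on low genes it was not called either (adjusted p 0.0822 to 0.111). After doxorubicin the call was lost without any 1 of the 4 clones (log2 difference 0.22 to 0.27, limma adjusted p 0.0626 to 0.247), or without the single library KO11 doxorubicin replicate 1, KO11 doxorubicin replicate 2, Scr13 doxorubicin replicate 2, Scr16 doxorubicin replicate 2 or KO28 doxorubicin replicate 2 (log2 difference 0.21 to 0.25, limma adjusted p 0.0803 to 0.122). In edgeR, with scaling by library size alone or with no filter on low genes it was not called either (adjusted p 0.0537 to 0.0852). PGD, which makes NADPH in the oxidative branch, TALDO1, the transaldolase, and ME1, the cytosolic malic enzyme, were not called in any comparison. Their genotype differences after doxorubicin were 0.06, -0.01 and 0.20 on the log2 scale, with 95% intervals of -0.09 to 0.22, -0.19 to 0.16 and -0.13 to 0.52.

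Of the ferritin subunits, NRF2 targets that store iron, FTL was higher after doxorubicin in both genotypes, while the call of FTH1 in KO was lost under most alternatives to the test. FTL had 357, 346, 345 and 376 normalized CPM in untreated Scr and 356, 355, 389 and 341 in untreated KO, then 477, 440.1, 456 and 439 and 423, 489.5, 390.5 and 423 after doxorubicin. On these values every treated library lay above every untreated library of its genotype. In KO the margin was slight, with 390.5 in KO28 doxorubicin replicate 1 against 389 in KO28 untreated replicate 1. The rise was 0.34 (95% interval 0.20 to 0.49, limma adjusted p = 0.00106) in Scr and 0.26 (95% interval 0.11 to 0.40, limma adjusted p = 0.00909) in KO. It was not called in Scr without clone Scr13 (log2 difference 0.30, limma adjusted p = 0.116). In KO it was not called without clone KO11 (log2 difference 0.16, limma adjusted p = 0.391), or without the library KO11 doxorubicin replicate 2 (log2 difference 0.20, limma adjusted p = 0.0677). FTH1 had group means of 675 ± 52.9 in untreated Scr and 735 ± 101 in untreated KO, then 765 ± 25.1 and 848 ± 50.6 normalized CPM after doxorubicin (SD, n = 4). Its change was 0.18 (95% interval 0.02 to 0.34, limma adjusted p = 0.131) in Scr and 0.22 (95% interval 0.06 to 0.38, limma adjusted p = 0.0489) in KO. The rise in KO was not called without clone KO11 (log2 difference 0.04, limma adjusted p = 0.881), or without the single library KO11 untreated replicate 1, KO11 untreated replicate 2, KO11 doxorubicin replicate 1, KO11 doxorubicin replicate 2 or KO28 untreated replicate 2 (log2 difference 0.14 to 0.23, limma adjusted p 0.0683 to 0.25). In edgeR, with scaling by library size alone, with a replicate block, without the clone term, with a pseudocount of 5 or with no filter on low genes it was not called either (adjusted p 0.0524 to 0.142).

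Of the 5 glutathione transferases tested, GSTP1 was called once, with doxorubicin in Scr (20%, beside 12.6% of all genes). It conjugates glutathione to electrophiles and had 323 ± 13.9 normalized CPM in untreated Scr and 274 ± 26.0 in treated Scr (SD, n = 4), against 334 ± 30.1 and 296 ± 28.3 in KO. The change with doxorubicin was -0.25 (95% interval -0.41 to -0.09, limma adjusted p = 0.0345) in Scr and -0.17 (95% interval -0.33 to -0.01, limma adjusted p = 0.137) in KO. The fall in Scr was not called without clone Scr13 or Scr16 (log2 difference -0.35 to -0.14, limma adjusted p 0.0637 to 0.556), or without the single library Scr13 untreated replicate 1, Scr13 untreated replicate 2, Scr13 doxorubicin replicate 1, Scr13 doxorubicin replicate 2, Scr16 untreated replicate 2 or Scr16 doxorubicin replicate 1 (log2 difference -0.26 to -0.20, limma adjusted p 0.0545 to 0.153), or with no filter on low genes (adjusted p = 0.119). MGST2, MGST3, GSTM3 and GSTK1 were not called in any comparison with all libraries. Leaving out a clone or library called GSTK1 after doxorubicin (without Scr13 or its replicate 2) and with doxorubicin in KO (without KO28 untreated replicate 2), at lowest adjusted p of 0.0388 and 0.048. MGST2, MGST3 and GSTM3 had no such call, and the microsomal MGST1 was too low to test, with at most 2.57 normalized CPM.

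Between clones of the same genotype no gene was called. In KO28 against KO11, 0 of 40 were called by limma and 4 had an unadjusted p under 0.05, while edgeR and DESeq2 also called 0, and 0.0522% of all genes were called. GPX8 had the smallest p, with a log2 difference of -0.81 (95% interval -1.35 to -0.27, limma adjusted p = 0.315). In Scr16 against Scr13, 0 of 40 were called by limma, edgeR and DESeq2, 4 had an unadjusted p under 0.05 in limma, and 0.0131% of all genes were called. NQO1 had the smallest p there, with 0.46 (95% interval 0.07 to 0.86, limma adjusted p = 0.583).

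Other genes of the pathway were grouped in 8 lists, chosen with earlier results of these data known. In the list of NRF2 control, where BACH proteins compete with NRF2, small MAF proteins pair with it and SQSTM1 (p62) draws KEAP1 to autophagy, 0 of 19 genes were called between the genotypes untreated (3 at an unadjusted p under 0.05, and 0 by edgeR and DESeq2) and 2 after doxorubicin (10.5%, beside 8.69% of all genes). SQSTM1 had 109.8, 103, 103 and 85.1 normalized CPM in treated Scr and 143, 132, 132 and 144 in treated KO, and a log2 difference of 0.46 (95% interval 0.29 to 0.64, limma adjusted p = 0.000838). BACH2 had 49.5, 51.8, 73.8 and 55.9 and 33.9, 27.7, 31.7 and 26.9, with a log2 difference of -0.91 (95% interval -1.17 to -0.65, limma adjusted p = 3.02e-05). Neither gene's treated groups overlapped, and both moved the same way with doxorubicin in KO, by 0.52 and -0.46 (limma adjusted p = 2.27e-05 and 0.00375). In the same list doxorubicin raised MAFF in Scr (0.78, limma adjusted p = 0.0163) and lowered DPP3 (-0.49, limma adjusted p = 0.00728), and MAFG was higher with it in KO. The fall of BACH2 in KO was not called without clone KO11 (log2 difference -0.36, limma adjusted p = 0.211). That rise of MAFF was not called without clone Scr13 or Scr16 (log2 difference 0.72 to 0.84, limma adjusted p 0.152 to 0.159), or without the single library Scr13 doxorubicin replicate 2, Scr16 untreated replicate 1 or Scr16 doxorubicin replicate 1 (log2 difference 0.62 to 0.73, limma adjusted p 0.0507 to 0.0843), or with no filter on low genes (adjusted p = 0.0806). That fall of DPP3 was not called without clone Scr13 or Scr16 (log2 difference -0.49, limma adjusted p 0.09 to 0.106), or without the library Scr13 doxorubicin replicate 1 (log2 difference -0.38, limma adjusted p = 0.061), or with no filter on low genes (adjusted p = 0.0555). MAFG was not called without clone KO28 (log2 difference 0.32, limma adjusted p = 0.088).

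Of 31 further NRF2 targets, 24 were tested between the genotypes and 27 for doxorubicin. CBR1, a carbonyl reductase that can reduce anthracyclines, was lower in untreated KO, with a log2 difference of -0.38 (95% interval -0.60 to -0.17, limma adjusted p = 0.0275), 1 of 24 called (4.17%, beside 4.84% of all genes). ABCC3, a drug and conjugate exporter, had 0.475, 0.694, 0.951 and 0.714 normalized CPM in treated Scr and 6.66, 3.65, 8.57 and 6.28 in treated KO, which did not overlap. It reached the level required for the test in the libraries labelled KO alone, so no test of it is given. No other gene of the list was called by limma between the genotypes after doxorubicin. DESeq2 called 2 of 24 there, ABCC3 counted where it passed, beside 1457 of all 14572 genes. More genes of the list had an unadjusted p under 0.05 in limma. These were 6 of 24 untreated and 11 of 24 after doxorubicin, ABCC3 counted, beside 2051 of 14364 and 2953 of 14572 over all genes. After doxorubicin 12 of the 24 differences lay above 0 and 12 below. Doxorubicin raised 2 of the 27 and lowered 1 in Scr (11.1%, beside 12.6% of all genes), and raised 6 and lowered 3 in KO (33.3%, beside 17.7%). The count in KO fell from 9 to 4 without KO11 untreated replicate 2 or KO11 doxorubicin replicate 1, which lost UGDH, EPHX1, GSTA4, GSTM2 and RIT1, and to 6 without KO11 or KO28 untreated replicate 1 and to 2 without clone KO11. In Scr it was 1 to 5 with 1 library left out, 0 without clone Scr13 and 1 without Scr16. The largest changes in KO were those of ABCC3 (1.56, limma adjusted p = 0.000196) and the biliverdin reductase BLVRB (1.21, limma adjusted p = 0.00116). In Scr BLVRB rose as well (0.87, limma adjusted p = 0.0238). The call of CBR1 was lost without clone KO11, Scr13 or Scr16 (log2 difference -0.44 to -0.32, limma adjusted p 0.131 to 0.373), or without the single library KO11 untreated replicate 1, KO11 untreated replicate 2, Scr13 untreated replicate 2, Scr16 untreated replicate 1 or Scr16 untreated replicate 2 (log2 difference -0.38 to -0.35, limma adjusted p 0.07 to 0.0962). On clone means it was not called either (adjusted p = 0.106). The rise of BLVRB in KO was not called without clone KO11 (log2 difference 0.88, limma adjusted p = 0.2). Its rise in Scr was not called without clone Scr13 or Scr16 (log2 difference 0.80 to 0.95, limma adjusted p 0.124 to 0.244), or without the single library Scr13 untreated replicate 2, Scr13 doxorubicin replicate 2 or Scr16 untreated replicate 1 (log2 difference 0.70 to 0.73, limma adjusted p 0.0998 to 0.118), or with no filter on low genes (adjusted p = 0.125).

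A list of antioxidant genes mostly under p53, the factor stabilized by DNA damage, had 9 of its 10 genes in the tables, PARK7, which protects NRF2, among them. The list was chosen with earlier results of these data known, so its shares of calls describe it and are no test of it. Doxorubicin raised SESN1, SESN2, TIGAR, GLS2 and TP53INP1 in both genotypes, 5 of 9 each time (55.6%, beside 12.6% and 17.7% of all genes) with 0 lower. The sestrin SESN2, which aids the reduction of peroxiredoxins, had 16.1, 11.98, 11.8 and 16.5 normalized CPM in untreated Scr and 54.8, 48.4, 29.8 and 38.4 in treated Scr, a rise of 1.51 (95% interval 1.23 to 1.80, limma adjusted p = 3.88e-09). In KO it had 19.4, 18.3, 21.3 and 21.4 and 69.6, 69.2, 57.8 and 65.0, a rise of 1.66 (95% interval 1.37 to 1.94, limma adjusted p = 3.64e-10). GLS2, the liver-type glutaminase that feeds glutathione synthesis, rose by 1.27 in Scr and 2.099 in KO (limma adjusted p = 0.00145 and 9.72e-07). Between the genotypes, 1 of 9 was called untreated (11.1%, beside 4.84% of all genes), while edgeR called 2 and DESeq2 3. It was TP53INP1, with a log2 difference of 0.45 (95% interval 0.23 to 0.66, limma adjusted p = 0.0124). By limma 4 were called after doxorubicin (44.4%, beside 8.69%), all higher in KO. The largest was TIGAR, a phosphatase that turns glucose toward NADPH production, with 20.7, 22.7, 19.6 and 16.9 in treated Scr and 35.0, 36.4, 34.5 and 30.7 in treated KO, a difference of 0.75 (95% interval 0.48 to 1.02, limma adjusted p = 0.000388), followed by TP53INP1 at 0.73 (95% interval 0.58 to 0.89, limma adjusted p = 7.61e-07). The untreated call of TP53INP1 was lost without clone KO11 or Scr16 (log2 difference 0.30 to 0.34, limma adjusted p 0.155 to 0.299), or without the library KO11 untreated replicate 2 (log2 difference 0.40, limma adjusted p = 0.0553). On clone means or with no filter on low genes it was not called either (adjusted p 0.0554 to 0.0879). The call of SESN2 between the genotypes after doxorubicin, 1 of the 4, was lost without clone KO11 or Scr16 (log2 difference 0.34 to 0.54, limma adjusted p 0.0661 to 0.118), or with no filter on low genes (adjusted p = 0.0667). The rise of GLS2 in Scr was not called without clone Scr13 (log2 difference 1.27, limma adjusted p = 0.076). For the difference between the doxorubicin responses 0 of 9 were called by limma, edgeR and DESeq2, and 3 had an unadjusted p under 0.05 in limma. The median log2 difference of the list after doxorubicin was 0.49 between the genotypes, beside 0.06 over the 40 pathway genes tested.

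The remaining lists held 1 or 2 genes called between the genotypes, or none. Of 15 further sources of NADPH tested, ALDH1L2, the mitochondrial formyltetrahydrofolate dehydrogenase, was called under both treatments (6.67%, beside 4.84% of all genes untreated and 8.69% after doxorubicin), lower in KO with 17.6, 18.0, 20.9 and 15.7 against 4.13, 4.52, 2.88 and 7.08 normalized CPM untreated. Its log2 differences were -1.79 (95% interval -2.23 to -1.36, limma adjusted p = 8.8e-06) untreated and -1.61 (95% interval -2.04 to -1.19, limma adjusted p = 1.21e-05) after doxorubicin. Of 8 sources of superoxide and peroxide tested, CYBA, the p22phox subunit of NADPH oxidases, was called lower in both (12.5%), with log2 differences of -0.76 (95% interval -1.16 to -0.35, limma adjusted p = 0.0236) and -0.69 (95% interval -1.06 to -0.32, limma adjusted p = 0.0147). The untreated call was lost without clone KO11, Scr13 or Scr16 (log2 difference -0.85 to -0.63, limma adjusted p 0.0797 to 0.292), or without the single library KO11 untreated replicate 1, KO11 untreated replicate 2, Scr13 untreated replicate 1 or Scr16 untreated replicate 1 (log2 difference -0.74 to -0.64, limma adjusted p 0.0511 to 0.112), or with no filter on low genes (adjusted p = 0.143). The other was lost without clone KO11 or Scr13 (log2 difference -0.62 to -0.51, limma adjusted p 0.1 to 0.269), or without the library KO11 doxorubicin replicate 2 (log2 difference -0.55, limma adjusted p = 0.066), or with no filter on low genes (adjusted p = 0.0581). A list of selenoprotein machinery and methionine sulfoxide reductases had 19 genes tested. Of these the reductase MSRB3 was higher in KO under both treatments (5.26%), with log2 differences of 0.63 (95% interval 0.34 to 0.91, limma adjusted p = 0.0072) and 0.83 (95% interval 0.46 to 1.20, limma adjusted p = 0.00382). Untreated, this was not called without clone KO11, Scr13 or Scr16 (log2 difference 0.57 to 0.64, limma adjusted p 0.0522 to 0.0979). After doxorubicin it was not called without clone KO11 or KO28 (log2 difference 0.82 to 0.84, limma adjusted p 0.0598 to 0.0688). 

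Of 9 genes of iron handling, 0 were called between the genotypes untreated (4 at an unadjusted p under 0.05, and 0 by edgeR and DESeq2) and 2 after doxorubicin (22.2%, beside 8.69% of all genes). STEAP3, an endosomal iron reductase, differed by 0.53 (95% interval 0.23 to 0.84, limma adjusted p = 0.0236) on the log2 scale, and NCOA4, the receptor that delivers ferritin to autophagy, by 0.28 (95% interval 0.12 to 0.44, limma adjusted p = 0.0227). The call of STEAP3 was lost without clone KO11, Scr16 or KO28 (log2 difference 0.29 to 0.61, limma adjusted p 0.0979 to 0.279), or without the single library KO11 doxorubicin replicate 1, KO11 doxorubicin replicate 2, Scr16 doxorubicin replicate 1, Scr16 doxorubicin replicate 2 or KO28 doxorubicin replicate 2 (log2 difference 0.37 to 0.54, limma adjusted p 0.0519 to 0.0961). On clone means or with no filter on low genes it was not called either (adjusted p 0.0592 to 0.142). That of NCOA4 was lost without clone KO11, Scr13 or KO28 (log2 difference 0.23 to 0.32, limma adjusted p 0.0797 to 0.316), or without the single library KO11 doxorubicin replicate 1, KO11 doxorubicin replicate 2, Scr13 doxorubicin replicate 2 or Scr16 doxorubicin replicate 2 (log2 difference 0.25 to 0.27, limma adjusted p 0.0576 to 0.101). Of the genes of glutathione turnover, 0 of 13 tested untreated and 0 of 14 after doxorubicin were called between the genotypes by limma, edgeR and DESeq2, and 0 had an unadjusted p under 0.05. With doxorubicin, STEAP3 rose in both genotypes (0.69 and 1.06, limma adjusted p = 0.00158 and 4.3e-06), and MTHFD1, a folate enzyme, fell in both (-0.41 and -0.41, limma adjusted p = 0.00143 and 0.000923). STEAP3 was not called in Scr without clone Scr13 (log2 difference 0.39, limma adjusted p = 0.316). MTHFD1 was not called in Scr without clone Scr16 (log2 difference -0.30, limma adjusted p = 0.124). In KO MTHFD1 was not called without clone KO11 (log2 difference -0.27, limma adjusted p = 0.211).

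Reads of genes that overlap cannot be told apart where the strand setting of the counting is unknown. Of the listed genes described above, SQSTM1 (MGAT4B and MRNIP), BACH2 (AL121787.1), MAFF (PLA2G6), MAFG (AC145207.8) and DPP3 (AP002748.3) in NRF2 control overlap the annotated genes in parentheses on the opposite strand. So do UGDH (UGDH-AS1), EPHX1 (AL591895.1 and TMEM63A), BLVRB (RF00017), CBR1 (AP000688.1 and SETD4) and GSTM2 (AC000032.1) among the NRF2 targets. The same is true of SESN1 (AL390208.1), TIGAR (AC006122.1), GLS2 (SPRYD4), TP53INP1 (NDUFAF6), PARK7 (RF00019), ALDH1L2 (C12orf45), MTHFD1 (AL122035.1, AL122035.2 and ZBTB25), MSRB3 (AC025419.1 and KRT18P60) and STEAP3 (STEAP3-AS1). On its own strand MAFG overlaps SIRT7, and GSTM2 overlaps GSTM1 and GSTM4. Among the 43 members, further opposite-strand overlaps include those of NFE2L2 (AC019080.2, AC019080.3, AC019080.4, AC079305.1 and AGPS), GCLC (AL033397.2), TXNRD1 (AC089983.1), GLRX (HSPD1P11 and RHOBTB3), SOD1 (AP000254.1) and SOD2 (WTAP), and of PRDX2 (AC018761.2), ME1 (AL391416.1), MGST2 (H3F3AP6, MAML3 and RN7SKP237), GSTM3 (AL158847.1 and GSTM5) and GSTK1 (AC073342.1).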

How the data were processed

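Directional libraries of polyadenylated RNA were sequenced for the 16 samples. The submitters' processing notes name bcl2fastq, HISAT2 2.1.0, HTSeq, edgeR and GRCh38. The strand setting and annotation release are not given in the sources used here. The deposited tables, 1 for untreated and 1 for doxorubicin libraries, hold for each library a signal, the gene count scaled by a library factor (normalized CPM, factors 0.974 to 1.03). They also hold the authors' own comparison of the genotypes as log2 fold changes, p-values and a ranking, and none of these was used.

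Reads were recovered from the values, 100% of which were whole numbers of reads (tolerance 0.01). Genotypes were compared within a table on the deposited values. Doxorubicin was compared within a genotype, with all 16 libraries in 1 fit and the clone as a term, after their recovered reads had been scaled together (TMM). A gene was tested if 4 or more libraries reached 1 normalized CPM. The test was limma 3.58.1 (R 4.3.3) on log2(normalized CPM + 1), with Benjamini-Hochberg adjustment over all genes tested. Alternatives were edgeR 4.0.16 and DESeq2 1.42.0 on recovered reads, pseudocounts of 0.25 and 5, other filters and scaling, clone means, clone and replicate blocks, and each clone or library left out.

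The members and lists were chosen with earlier results of these data known. Values in every library were given for 23 members (14 chosen by role, those called between genotypes, and the 5 largest called changes with doxorubicin), and for the other lists at most the 2 largest called changes per comparison were given. Gene names and exon lengths came from GENCODE 29 and matched 95.9% of identifiers. Replicates differed beyond sampling noise, and each library counted as 1 sample.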

Additional observations from a re-analysis of the deposited data

Results flagged for a closer look

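For the 23 genes given library by library, each group of 4 libraries was checked for a library whose gap to the nearest other, as a share of the range of its group, exceeded the 95% critical value of Dixon's test. Of 91 groups checked 6 had such a library, and chance alone gives about 1 in 20. In 3 of them the library was one of Scr16: GCLM was 19.5 normalized CPM in Scr16 untreated replicate 1 (21.7 to 22.0 in the other untreated Scr libraries), CAT was 34.4 in Scr16 doxorubicin replicate 1 (24.0 to 25.2 in the others), and SRXN1 was 3.71 in the same library (0.568 to 0.909 in the others), which was the shallowest. PRDX2 was 263.5 in Scr13 untreated replicate 2 (245 to 248 in the others), and PRDX3 was 77.35 in Scr13 doxorubicin replicate 2 (87.8 to 89.9 in the others). GPX7 was 12.9 in KO28 untreated replicate 1 (7.88 to 8.27 in the other untreated KO libraries). No explanation was tested for any of these.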

How the results depend on the processing

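Each comparison was repeated with 1 choice changed at a time. Over the 25 calls of the pathway genes, GPX8 between the genotypes left out, 505 alternative values were computed, of which 0 changed sign and 127 missed the threshold. Over their 172 results that were not called, 269 of 3862 values changed sign and 36 passed it. These results are those of the genotypes, of doxorubicin and of the difference between its responses, and the comparisons between clones of the same genotype are left out. The cause was not tested for any change below.

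Of the pathway genes, counting GPX8 where it passed, DESeq2 called 5 untreated and 1 for the difference between the doxorubicin responses. Clone means gave 1 call untreated. Without a filter 3 were called between the genotypes after doxorubicin and 3 for doxorubicin in Scr. Untreated, 5 were called without KO11 and 1 without Scr13, Scr16 or KO28. After doxorubicin 1 was called without KO11 and 2 without Scr16 or KO28. For doxorubicin in Scr 0 were called without Scr13 and 4 without Scr16, and in KO 4 without KO11 and 3 without KO28. With 1 library left out, calls ranged from 1 to 4 untreated, 4 to 8 after doxorubicin, 3 to 9 for doxorubicin in Scr, 6 to 9 in KO and 0 to 1 for the difference between responses.

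Of all genes, 368 were called untreated with no filter, 362 without Scr13 and 364 without Scr16 (538 to 711 with 1 library left out). After doxorubicin 574 were called without KO11 and 629 without KO28 (863 to 1342). For doxorubicin, 547 were called in Scr without Scr13 and 899 without Scr16 (1348 to 2017), and 930 in KO without KO11 and 1380 without KO28 (2029 to 2442). The difference between responses gave 3 calls with a pseudocount of 0.25, 26 with 5, 2 without a filter, 10 in edgeR, 58 in DESeq2, 3 with no clone term, 0 without KO11, 9 without Scr13, 1 without Scr16 and 1 without KO28 (1 to 18). KO28 against KO11 gave 4 and 18 calls with those pseudocounts, 2 without a filter and 56 in DESeq2 (0 to 10). Scr16 against Scr13 gave 4 without a filter, 1 with at least 10 reads in every library, 4 in edgeR and 10 in DESeq2 (1 to 27).

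The replicate numbers did not pair the libraries, since deviations of same-numbered libraries correlated between -0.101 and 0.12. A replicate block gave 25 calls over all genes for the difference between responses, 15 for KO28 against KO11 and 6 for Scr16 against Scr13. At these depths 3 reads correspond to at most 0.285 normalized CPM, so differences in HMOX2, SRXN1, MGST1, and untreated HMOX1 and GPX8 were hard to measure.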
